A study of Mus musculus with 14 samples.

Results

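The ERBB receptors and their EGF-like ligands were examined in total RNA-seq data from the mammary gland of lactating mice. The members were fixed as 10 gene symbols, the 4 receptors *Egfr*, *Erbb2*, *Erbb3* and *Erbb4* and the 6 ligands *Egf*, *Tgfa*, *Hbegf*, *Btc*, *Ereg* and *Nrg4*, and all 10 were found in the tables of both mice among 20515 genes with a usable symbol. The rule gives their names and uses no value of theirs, although it was written with earlier results of these data known. Levels are given as FPKM, fragments per kilobase of exon (or of intron) scaled to the library, so that genes of different length can be set side by side.

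ERBB receptors are tyrosine kinases of the cell surface that act in pairs. EGFR binds EGF, TGF-alpha, HB-EGF, betacellulin and epiregulin, ERBB4 binds neuregulins and some of the EGF-like ligands, ERBB2 has no known ligand of its own, and ERBB3 binds neuregulins but has little kinase activity, so that it signals mainly through a partner such as ERBB2. The ligands are made as membrane-anchored precursors, and in the mammary gland the family is known for its roles in duct growth, in alveolar development and, through ERBB4 and STAT5, in milk gene expression.

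Both mice carried 1 wild-type allele and 1 Wap-Tbrg4 allele (WT/wTbrg4, also written wt/Wap-Tbrg4), in which a CRISPR/Cas9 deletion joined the *Wap* regulatory region and first exon to *Tbrg4*, the neighbouring gene for a mitochondrial RNA-binding protein. The *Wap* promoter is active in secretory cells of the mammary gland, and the second allele kept *Wap* and *Tbrg4* intact. The zygotes were C57BL/6, and whole mammary gland was taken on lactation day 10 from 2 mice, called replicate 1 and replicate 2. The RNA-seq files used here hold this genotype only, so no comparison of genotypes was made, and the 12 ChIP-seq samples of the series were not analysed here. With 2 mice of 1 genotype there is no test of a difference, and each value stands with its spread between the mice. In whole tissue, fewer cells of a type and less RNA per cell cannot be told apart.

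The libraries were dominated by milk mRNA. In replicate 1, 44.1% of the estimated exon fragments fell on 7 milk protein genes, and in replicate 2, 71.3% did, which left an estimated 6750000 and 3270000 exon fragments for other genes. These estimates rest on RefSeq gene lengths and on the steps between FPKM values of short genes. There, 1 fragment per kilobase was worth 0.0995 FPKM in replicate 1 and 0.195 FPKM in replicate 2. *Tbrg4*, the targeted gene, was at 314.7 and 291.5 exon FPKM. The marker lists of the tissue were present, with all 5 luminal and all 5 secretory epithelial markers at 1 exon FPKM or more. The myoepithelial gene *Acta2* and the kinase gene *Araf* were listed at 0.0 for exons and introns in both mice, and *Gapdh*, which every cell uses, at 0.1 and 0.3 exon FPKM. A listed 0 in these files is therefore not by itself a measurement of absence.

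Among the members, 1 ligand and 1 receptor stood far above the rest. *Egf* had the highest exon FPKM in both mice and *Erbb3* the next highest, followed by *Egfr*, *Erbb2* and *Erbb4* at a few FPKM, then *Nrg4* near 1 and *Hbegf* below 1. *Tgfa*, *Btc* and *Ereg* were at the lower limit of the files. Of the 10 members, 6 had a mean exon FPKM of at least 1, compared with 48.0% of all genes (9845 of 20515). A mean of at least 10 was reached by 2 of the 10 members and by 3112 of the 20515 genes. The sum over the 10 members was 95.1 exon FPKM in replicate 1 and 72.5 in replicate 2.

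**Figure D1:**
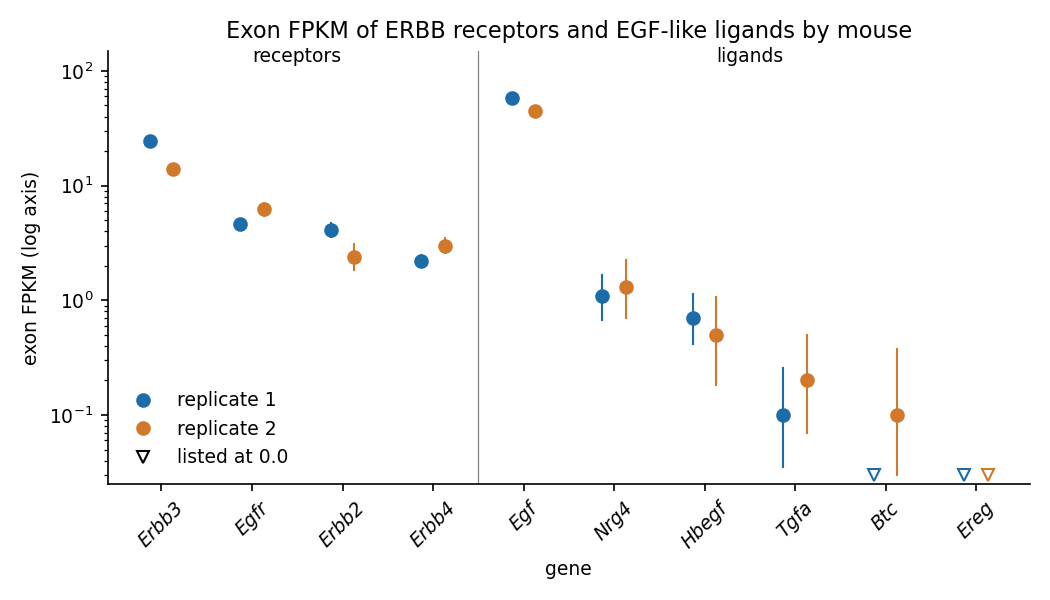
Exon FPKM of the 4 receptors and 6 ligands on a log axis, with 1 point for each mouse and bars for the 95% exact Poisson interval of the estimated fragments (counting error only). Open triangles mark values listed at 0.0, drawn at the foot of the axis and not at a measured height. *Egf* (57.9 and 44.7) and *Erbb3* (24.4 and 14.1) stand above all other members in both mice, and *Ereg* is listed at 0.0 in both.

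The sequences upstream of 3 members are shown. *Egf* is the most abundant member, *Tgfa* is one of the least abundant ligands, and *Egfr* encodes the receptor that the products of both bind. The 250 bases before the transcription start are given 5′ to 3′ on the strand of the gene, from RefSeq on GRCm38.p6 (mm10). Capitals mark a GC box, searched as GGGCGG or CCGCCC, which is the same motif on either strand. The *Egf* window is chr3:129755323-129755572 on the minus strand, the *Tgfa* window chr6:86194972-86195221 on the plus strand and the *Egfr* window chr11:16751953-16752202 on the plus strand.
Egf: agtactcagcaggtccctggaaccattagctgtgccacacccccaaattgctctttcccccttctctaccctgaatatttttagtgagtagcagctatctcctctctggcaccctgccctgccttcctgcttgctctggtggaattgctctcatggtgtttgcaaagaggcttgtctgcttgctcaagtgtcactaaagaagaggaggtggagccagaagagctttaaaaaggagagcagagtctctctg
Tgfa: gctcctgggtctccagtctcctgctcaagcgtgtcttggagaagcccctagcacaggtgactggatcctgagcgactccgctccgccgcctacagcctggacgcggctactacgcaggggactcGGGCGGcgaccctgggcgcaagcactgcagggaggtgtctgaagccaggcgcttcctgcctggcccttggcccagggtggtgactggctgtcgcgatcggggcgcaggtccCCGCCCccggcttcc
Egfr: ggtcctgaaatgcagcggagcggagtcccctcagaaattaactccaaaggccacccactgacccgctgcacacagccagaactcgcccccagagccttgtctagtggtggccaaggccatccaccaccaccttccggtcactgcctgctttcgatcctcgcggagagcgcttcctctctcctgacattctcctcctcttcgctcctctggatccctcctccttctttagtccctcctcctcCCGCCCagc

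The printed *Egf* window had a GC content of 50.4% and held 0 CG dinucleotides, and the window of the second annotated *Egf* start, chr3:129725087-129725336, had 52.0% and 15. The *Tgfa* window had 69.2% and 19 CG dinucleotides, the *Egfr* window 60.8% and 11, and the window of *Btc*, another ligand gene near 0 FPKM, 59.6% and 4. The *Tgfa* window held 2 GC boxes and the *Egfr* window 1. Windows were matched for 7 members, 8 windows in all, and GC boxes were present in 2 of the 8, compared with 32.7% of 32851 promoter windows of the same length. Other motifs were searched on both strands. The STAT motif TTCNNNGAA was in 0 of the 8 windows and in 7.02% of all windows, the CRE motif TGACGTCA in 0 and 1.55%, and the TATA motif TATAAA in 0 and 7.59%. These counts describe letters in short windows and say nothing of binding.

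*Erbb3*, which encodes the receptor with little kinase activity, was the main receptor transcript. Its gene spans chr10:128567523-128589635 on the minus strand. It was at 24.4 exon FPKM in replicate 1 and 14.1 in replicate 2 (mean 19.3 ± 7.28 SD, n = 2), estimated from 1471 and 434 fragments. The higher mouse lay 1.73-fold above the lower (95% counting interval 1.55 to 1.93), so the difference exceeded counting error. *Erbb3* ranked 1581 of 20515 genes by mean exon FPKM.

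*Egfr*, the receptor for EGF itself, was at 4.6 and 6.2 exon FPKM (mean 5.40 ± 1.13 SD, n = 2; chr11:16752203-16913907, plus strand). Unlike *Erbb3*, it was higher in replicate 2, by 1.35-fold (1.12 to 1.62). *Erbb2*, the partner receptor without a ligand, was at 4.1 and 2.4 exon FPKM (mean 3.25 ± 1.2 SD, n = 2; chr11:98412484-98437716, plus strand). It followed the direction of *Erbb3*, with replicate 1 higher by 1.71-fold (1.27 to 2.29).

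*Erbb4*, the receptor linked to STAT5 in the lactating gland, was at 2.2 and 3.0 exon FPKM (mean 2.60 ± 0.566 SD, n = 2; chr1:68032186-69108059, minus strand). Like *Egfr* it was higher in replicate 2, by 1.36-fold (1.12 to 1.65). The ranges of *Erbb2* and *Erbb4* overlapped, since *Erbb2* was 1.9 FPKM above *Erbb4* in replicate 1 and 0.6 FPKM below it in replicate 2, so these neighbours have no fixed order. The ranges of *Egfr* and *Erbb2* did not overlap, but the gap in replicate 1 was 0.5 FPKM and the counting intervals there overlapped, 4.10 to 5.16 for *Egfr* and 3.56 to 4.70 for *Erbb2*.

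Shares within a mouse are free of any scaling between the mice. *Erbb3* made up 69.1% of the summed receptor exon FPKM in replicate 1 and 54.9% in replicate 2 (mean 62% ± 10.1 SD, n = 2). *Egfr* took 13% and 24.1%, *Erbb2* 11.6% and 9.34%, and *Erbb4* 6.23% and 11.7%. *Erbb3* thus held more than any other receptor in each mouse, while the shares of *Egfr* and *Erbb4* were each higher in the mouse where that of *Erbb3* was lower.

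By deposited exon FPKM, the ratio within 2 pairs of receptors was near equal in both mice. *Erbb3* was 5.95 times *Erbb2* in replicate 1 and 5.88 times in replicate 2, and *Egfr* was 2.09 and 2.07 times *Erbb4*. Ratios across the pairs differed between the mice, with *Erbb3* to *Egfr* at 5.30 and 2.27 and *Erbb3* to *Erbb4* at 11.1 and 4.70. By introns neither pair held its ratio, with *Erbb3* to *Erbb2* at 3.0 and 8.0 and *Egfr* to *Erbb4* at 3.0 and 7.0. With 2 mice these are no measure of co-expression.

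Intron FPKM, which stands for RNA not yet spliced, placed *Erbb3* and *Egfr* closer together in both mice. By the ratios above, *Egfr* and *Erbb4* lay further apart by introns in both mice, and *Erbb3* and *Erbb2* in replicate 2 only. *Erbb3* was at 0.6 and 0.8 intron FPKM, *Egfr* at 0.6 and 0.7, and both *Erbb2* and *Erbb4* at 0.2 and 0.1. The intron share of *Erbb3* was 37.5% and 47.1%, that of *Egfr* 37.5% and 41.2%, and those of *Erbb2* and *Erbb4* 12.5% and 5.88% each. *Erbb3* and *Egfr* were therefore about level by introns, whereas *Erbb3* led by exons in both mice. Intron values carry 1 decimal, so a printed 0.1 can stand for 0.05 to 0.15 and small ratios between them are coarse.

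**Figure D2:**
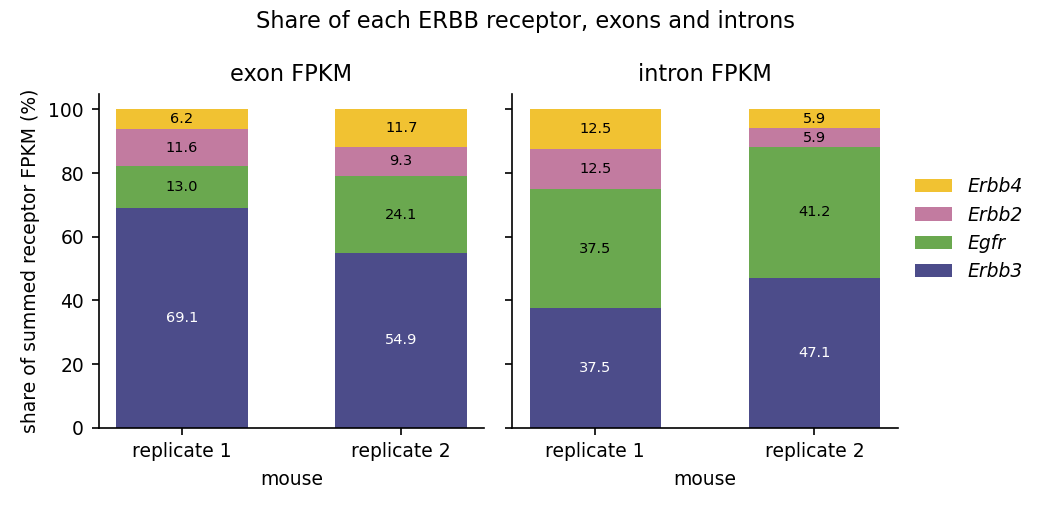
Share of each receptor in the summed receptor FPKM of a mouse, in percent, for exons (left) and introns (right), with 1 stacked bar for each mouse. *Erbb3* takes 69.1% and 54.9% of exon FPKM and 37.5% and 47.1% of intron FPKM, while *Egfr* takes 13% and 24.1% of exon FPKM and 37.5% and 41.2% of intron FPKM.

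*Egf*, the prototype ligand of EGFR and a growth factor of milk, was the most abundant member. It was at 57.9 exon FPKM in replicate 1 and 44.7 in replicate 2 (mean 51.3 ± 9.33 SD, n = 2), from an estimated 2786 and 1098 fragments, and ranked 469 of 20515 genes. Its gene spans chr3:129677577-129755322 on the minus strand. Replicate 1 was higher by 1.3-fold (1.21 to 1.39). *Egf* alone was 2.37 and 3.17 times *Erbb3*, and 12.6 and 7.21 times *Egfr*, its receptor. It was nevertheless small beside the milk protein mRNAs, at 0.0533% and 0.00928% of the exon FPKM of *Csn2*, which encodes beta-casein.

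*Nrg4*, a neuregulin known as a ligand of ERBB4, was the second ligand. It was at 1.1 and 1.3 exon FPKM (mean 1.2 ± 0.141 SD, n = 2; chr9:55220222-55283625, minus strand), from an estimated 21 and 13 fragments. The mice did not differ beyond counting error, with replicate 2 to replicate 1 at 1.18-fold (0.558 to 2.54). *Nrg4* shares part of its span with *Fbxo22*, a ubiquitin ligase subunit gene on the opposite strand at 11.9 and 11.1 exon FPKM. At the mean density of *Fbxo22* exons, the 166 bases of exon that the genes share would hold 19.9 and 9.45 *Fbxo22* fragments, close to the whole *Nrg4* exon estimate. The library kit marks strand, but the strand setting of the counting is not given in the sources used here, so the *Nrg4* value is uncertain and the part of *Fbxo22* in it was not tested. The exons that *Egf* and *Erbb2* share with genes of the opposite strand, 6330410L21Rik and *Mien1*, correspond by the same reckoning to at most 3.05 and 6.11 fragments.

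*Hbegf*, which encodes heparin-binding EGF-like growth factor, was at 0.7 and 0.5 exon FPKM (mean 0.600 ± 0.141 SD, n = 2), from an estimated 17 and 6 fragments. The ratio of replicate 1 to replicate 2 was 1.40-fold (0.544 to 4.48), which is within counting error. *Tgfa*, which encodes another ligand of EGFR, was at 0.1 and 0.2 exon FPKM, or about 5 fragments in each mouse, and its counting intervals of 0.0355 to 0.255 and 0.0695 to 0.500 FPKM overlapped. These ligands were detected at a level where no difference between the mice could be measured.

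*Btc* and *Ereg*, which encode betacellulin and epiregulin, lie in a cluster of EGF-like ligand genes on chromosome 5 together with *Areg* and *Epgn*, within 375 kb. *Btc* (chr5:91357261-91402994, minus strand) was listed at 0.0 exon FPKM in replicate 1 and 0.1 in replicate 2, a value worth about 1.47 fragments. *Ereg* (chr5:91074617-91093649, plus strand) was listed at 0.0 in both mice, where 3 fragments would have given 0.0722 and 0.141 FPKM. *Areg*, the amphiregulin gene, was also listed at 0.0 in both mice, and *Epgn*, the epigen gene, at 0.1 and 0.0. No gene of the cluster was therefore above 0.1 exon FPKM in either mouse. The casein gene *Csn3*, 3.14 Mb from *Ereg* on the same chromosome, was at 15499 and 64070 exon FPKM.

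By share, the ligands were almost entirely *Egf*. It made up 96.8% of the summed ligand exon FPKM in replicate 1 and 95.5% in replicate 2 (mean 96.2% ± 0.926 SD, n = 2). *Nrg4* took 1.84% and 2.78% and *Hbegf* 1.17% and 1.07%, with *Tgfa*, *Btc* and *Ereg* below 0.5% each. *Egf* was 52.6 and 34.4 times *Nrg4*, and 82.7 and 89.4 times *Hbegf*. Introns gave *Egf* a smaller share, 80.0% and 73.3%, with *Nrg4* at 13.3% and 26.7%.

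Neighbours in the order of mean exon FPKM were compared by the range of their values. From the top, *Egf*, *Erbb3*, *Egfr* and *Erbb2* had ranges that did not overlap, as did *Erbb4*, *Nrg4*, *Hbegf* and *Tgfa*. The pairs *Erbb2* and *Erbb4*, *Tgfa* and *Btc*, and *Btc* and *Ereg* overlapped and cannot be ordered. Within counting error, *Nrg4* and *Hbegf* also overlapped in both mice (0.671 to 1.66 and 0.415 to 1.14 FPKM in replicate 1, 0.700 to 2.25 and 0.181 to 1.07 in replicate 2), and *Hbegf* and *Tgfa* overlapped in replicate 2 (0.181 to 1.07 and 0.0695 to 0.500), so their order is not settled either.

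The ratio of introns to exons separated the members further. It was taken as the log2 of mean intron FPKM + 0.1 over mean exon FPKM + 0.1, and placed among the 9724 genes that averaged 1 exon FPKM or more and have introns, whose median was -3.55. *Egf* was at -5.36, lower than most genes (percentile 9.08), and *Erbb3* at -4.60 (percentile 20.3). Both had a lower intron FPKM for their exon FPKM than the median gene. By mouse, *Egf* was at -5.48 and -5.22, and *Erbb3* at -5.13 in replicate 1 and -3.98 in replicate 2, nearer to that median. *Erbb2* at -3.74 and *Erbb4* at -3.43 were close to the median, and *Egfr* at -2.87 (percentile 73.6) was above it.

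*Nrg4* had the highest ratio among the 6 members at or above 1 FPKM, at -1.70 (percentile 95.9), from intron FPKM of 0.2 and 0.4. Its introns held an estimated 124 and 126 fragments (93 to 154 and 110 to 142 given the rounding), 5.80 and 9.81 for each exon fragment. Exons of *Fbxo22* cover 1194 bases of *Nrg4* introns, which at the mean density of *Fbxo22* exons correspond to 143 and 68 fragments. This overlap was not separated from *Nrg4* transcription, and its part in the ratio was not tested.

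*Erbb4* showed how length enters these counts. Its introns span 1063837 bases against 12037 bases of exon. An intron FPKM of only 0.2 and 0.1 thus stood for an estimated 2138 and 546 intron fragments, or 8.03 and 2.95 for each exon fragment. Given the rounding to 1 decimal, the intron fragments could be 1604 to 2673 in replicate 1 and 273 to 818 in replicate 2. *Egfr*, with 155267 intron bases, had 3.15 and 2.72 intron fragments for each exon fragment. In *Egf* the value was 0.316 and 0.375, and in *Erbb3*, with 16114 intron bases, 0.0661 and 0.152. Per base, the introns of *Erbb4* were nonetheless less covered than those of *Egfr* in each mouse.

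The direction of *Erbb3* between the mice was not the same in exons and introns. Its exon FPKM was lower in replicate 2 (14.1 against 24.4), while its introns were at 0.6 FPKM in replicate 1 against 0.8 in the other mouse. The intron counting intervals of 0.486 to 0.731 and 0.618 to 1.02 FPKM overlapped, so the intron values were not distinguishable at this depth, whereas the exon intervals of 23.2 to 25.7 and 12.8 to 15.5 FPKM did not overlap. *Erbb4* had the opposite pattern, with exons higher and introns lower in replicate 2.

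**Figure D3:**
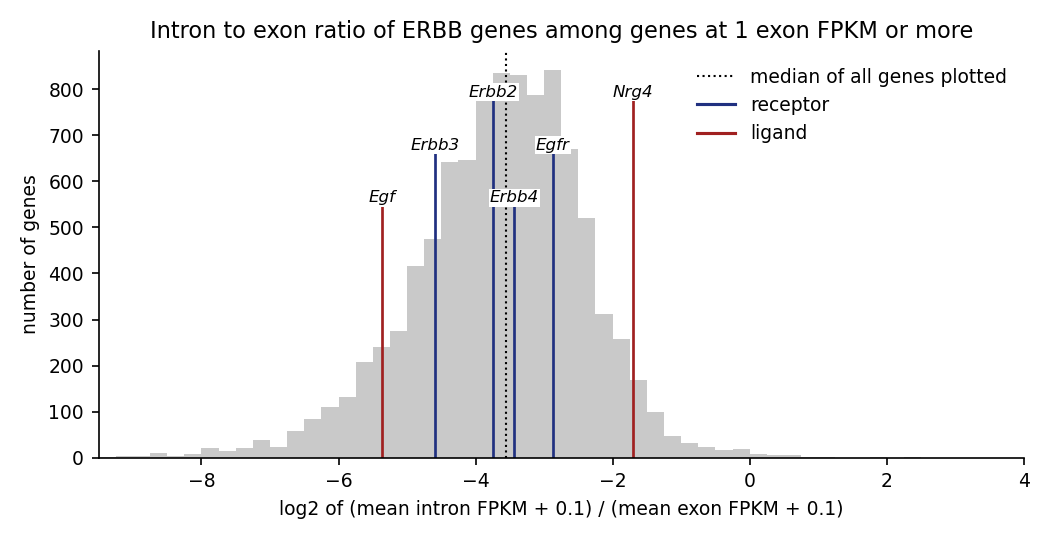
Histogram of the log2 ratio of mean intron FPKM + 0.1 to mean exon FPKM + 0.1 over the 9724 genes whose mean exon FPKM reached 1 (x axis, log2 units, with 15 genes beyond its ends; y axis, number of genes). Vertical lines mark the members with a mean of at least 1 FPKM, their heights serve only to separate the names, and *Egf* (-5.36) and *Nrg4* (-1.70) lie at opposite sides of the median of -3.55.

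The 2 mice were then compared for each member that averaged 1 exon FPKM or more, as the log2 ratio of FPKM + 1 in replicate 2 to that in replicate 1. None of the 6 members that passed this limit was more than 2-fold apart, and 3 were higher in each mouse. Among all 9845 genes that passed it, 581 (5.90%) were more than 2-fold apart, and 475 (4.82%) of these were higher in replicate 1. A count of 0 among 6 genes is thus close to what the background share gives. The log2 ratios were -0.75 for *Erbb3*, -0.58 for *Erbb2* and -0.37 for *Egf*, and 0.36 for *Egfr*, 0.32 for *Erbb4* and 0.13 for *Nrg4*. The median of these 6 was -0.12, and the median of all genes was -0.08. *Egfr*, *Erbb4* and *Nrg4* changed direction when the summed exon FPKM of the mice was made equal, which moved the median of all genes to -0.94, and kept it when the 10 highest genes were left out of that sum.

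The difference between the mice ran with the base composition of the genes. Across 9725 genes, the log2 ratio fell as exon GC content rose (Spearman rho -0.66, a description across genes of the same 2 libraries), with a median of 0.39 in the 10% of genes lowest in GC content and -0.74 in the 10% highest. *Erbb2*, at 57.3% GC, had a log2 ratio of -0.58 where genes within 2 GC points had a median of -0.53, and *Erbb4*, at 40.6% GC, had 0.32 where such genes had 0.32. After a lowess correction for GC content both were at -0.03. The difference of these receptors was thus the size found in genes of like composition.

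*Erbb3*, *Egfr* and *Egf* lay outside the middle 50% of genes of like composition, *Egfr* and *Egf* only just. *Erbb3*, at 51.2% GC, was at -0.75 where the median was -0.12 and the lower quartile -0.35, and was at -0.63 after the correction. *Egfr*, at 47.9% GC, was at 0.36 against a median of 0.02 and an upper quartile of 0.25, and at 0.33 after it. *Egf*, at 49.7% GC, was at -0.37 against a median of -0.04 and a lower quartile of -0.28, and at -0.32 after it. *Nrg4* moved from 0.13 to 0.08. After the correction, then, *Erbb3* (-0.63) and *Erbb2* (-0.03) no longer had like log2 ratios, and neither did *Egfr* (0.33) and *Erbb4* (-0.03).

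**Figure D4:**
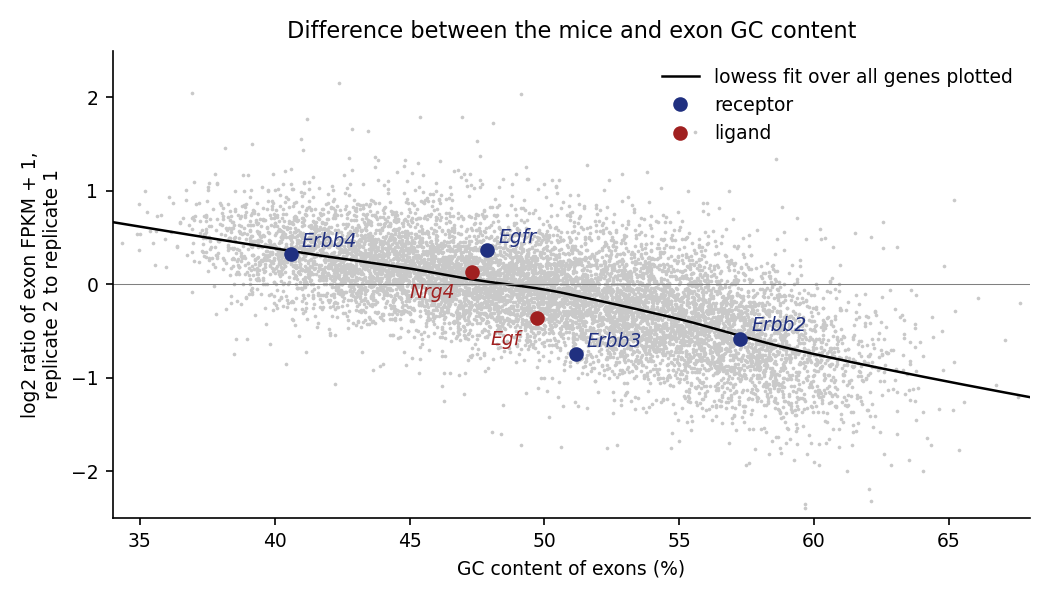
Log2 ratio of exon FPKM + 1, replicate 2 to replicate 1, against the GC content of exons in percent for 9725 genes whose mean exon FPKM reached 1 (grey, with 7 beyond the axes), with a lowess fit. *Erbb2* (-0.58) and *Erbb4* (0.32) lie on the fit, *Erbb3* (-0.75) and *Egf* (-0.37) below it and *Egfr* (0.36) above it.

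Several marker lists summed lower in replicate 2, as *Erbb3*, *Erbb2* and *Egf* were. The 5 luminal epithelial markers, all at 1 FPKM or more, summed to 333.4 exon FPKM in replicate 1 and 202.8 in replicate 2, although *Cdh1* went the other way (12.1 and 14.6). The myoepithelial list, with 4 of 5 at 1 FPKM or more and *Acta2* listed at 0.0, summed to 112.6 and 71.3, with *Oxtr* the other way (18.9 and 23.6), and the macrophage list, with 5 of 5, to 60.6 and 30.7. Schwann cells, another cell type known for *Erbb3*, had 3 of 5 markers at 1 FPKM or more and a sum of 51.1 and 28.4, most of it *Sox10* at 37.5 and 20. After the GC correction the log2 ratio of *Sox10* went from -0.87 to -0.02, and that of *C1qa*, most of the macrophage sum, from -1.15 to -0.45. Among the luminal markers, *Krt18* went from -1.32 to -0.84 and *Epcam* from -0.26 to -0.06. Among the myoepithelial markers, *Krt14* went from -1.56 to -1.02 and *Krt5* from -0.76 to -0.23. The correction thus left part of the difference in some markers and little in others.

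Adipocyte, fibroblast and hormone-sensing luminal lists summed higher in replicate 2, as *Egfr* and *Erbb4* were, but their genes did not move as one. The adipocyte list, with 5 of 5 at 1 FPKM or more, summed to 155.5 in replicate 1 and 179.9 in replicate 2, with *Plin1* (7.8 and 2.6) and *Lep* (5.6 and 4.3) the other way. The fibroblast list, also 5 of 5, summed to 101.6 and 122.2 through *Dcn* (42.9 and 78.4) and *Lum* (11.1 and 18.6), while *Col1a1* (23.5 and 11.2) and *Col1a2* (20.5 and 10.2) were lower in replicate 2. The hormone-sensing list, with 3 of 5, summed to 62.7 and 72.0, with *Ly6a* the other way (32.5 and 28.2). Most of this sum was *Ly6a* and *Prlr* (20 and 25.9), while *Pgr* (0.1 and 0.2) and *Foxa1* (0 and 0.4) were below 1 FPKM. Endothelial markers, 5 of 5, summed to 51.9 and 46.0, and lymphocyte markers, 2 of 5, to 110.6 and 93.2. The 5 secretory markers summed to 338181 and 875549, nearly all of it *Wap*, *Csn2* and *Csn1s1*. *Csn2* was at 108555 and 481937 and *Elf5* at 185.8 and 204.8, while *Lalba* went the other way (8453.5 and 8265.4). The part of cell makeup in the levels of the members was not tested.

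Besides its 10 members, the ERBB pathway was described by 5 lists of 65 other genes, all present in the tables. Of these, 56 (86.2%) had a mean exon FPKM of at least 1, against 48.0% of all genes. A mean of at least 10 was reached by 22 of the 65, against 3112 of all 20515 genes. Between the mice, 24 of the 56 were higher in replicate 1 and 29 in replicate 2. Their median log2 ratio was 0.06, against -0.08 over all genes tested, whose split by direction is not reported here. More than 2-fold apart were *Map2k2* (26.1 and 6.1), a MAP kinase kinase gene, and *Pik3r2* (6.3 and 2.4), a regulatory subunit of PI3-kinase, which are 3.57% of the 56 against 5.90% of all genes tested. After the GC correction the log2 ratio of *Map2k2* went from -1.93 to -1.17 and that of *Pik3r2* from -1.10 to -0.27, which is under 2-fold.

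The other ERBB ligands had 0 of 5 genes at 1 exon FPKM or more. *Nrg1*, the founding neuregulin and a ligand of ERBB3 and ERBB4, was highest at 0.7 and 0.4, and *Nrg2* followed at 0.2 and 0.1. *Areg* and *Nrg3* were listed at 0.0 in both mice. The neuregulins that bind ERBB3 were therefore far below *Erbb3* itself in this tissue RNA.

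Of 10 genes for ligand release, 7 were at 1 FPKM or more. The proprotein convertase gene *Furin* (41.7 and 26.5) and the membrane protease gene *Adam9* (20.2 and 22.3) were highest, and *Rhbdl2* (0.1 and 0.1) and *Pcsk5* (0.3 and 0.3) lowest. *Adam10* and *Adam17*, the main sheddases of EGF-like precursors, were at 12.0 and 20.7 and at 7.5 and 6.0.

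All 21 genes for receptor restraint were at 1 FPKM or more. The ubiquitin ligase gene *Nedd4* (51.2 and 61.4) and *Lrig1* (25.6 and 15.9), which encodes a transmembrane inhibitor of ERBB receptors, were highest, and *Socs5* (1.5 and 1.6) and *Spry4* (1.6 and 2.0) lowest. The median of the list was 5.20 FPKM, compared with 1.90 for the 10 members.

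All 18 genes for adaptors and enzymes bound by the receptors were at 1 FPKM or more, with a median of 8.50. *Pik3r1*, a regulatory subunit of PI3-kinase (50.5 and 54.5), and the adaptor gene *Crk* (30.9 and 36.9) were highest, and *Pik3r3* (3.4 and 2.9) and *Pik3r2* lowest. *Stat5a*, which encodes the main STAT of lactation, was at 21 in both mice.

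Of 11 genes from RAS to MAPK, 10 were at 1 FPKM or more, with a median of 11.2. *Map2k1*, which encodes a MAP kinase kinase (24.6 and 17.9), was highest, and *Araf*, listed at 0.0 in both mice, and *Braf* (4.5 and 6.7) were lowest.

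**Figure D5:**
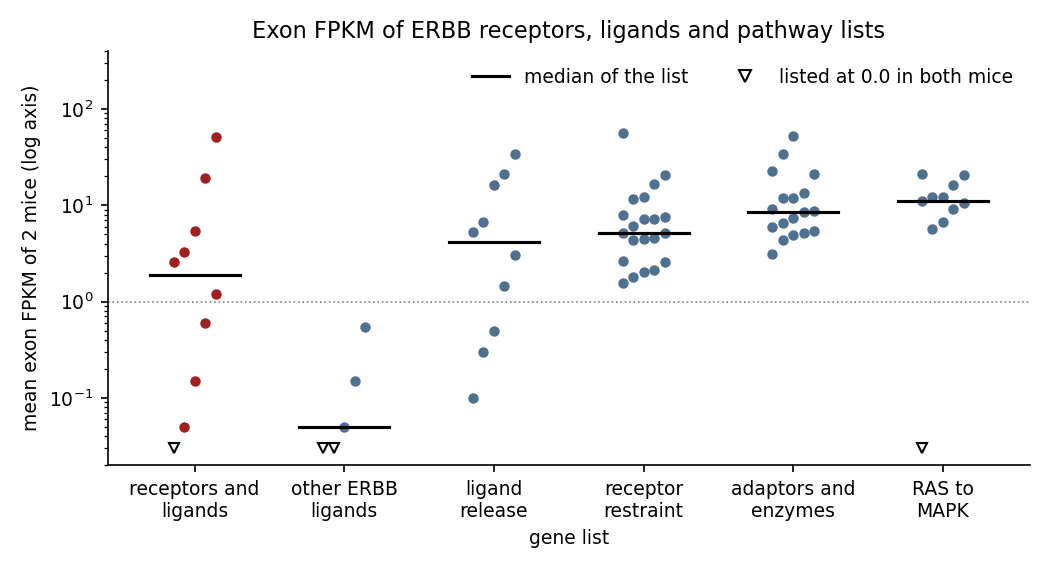
Mean exon FPKM of 2 mice on a log axis for the 10 receptors and ligands (red) and for the 5 pathway lists (blue), with 1 point for each gene and a bar for the median of a list. Open triangles mark genes listed at 0.0 in both mice, drawn at the foot of the axis, and the dotted line is 1 FPKM. The other ERBB ligands all lie below 1 FPKM, while all genes of receptor restraint and of the adaptors lie above it.

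Some members lie on the chromosome of the study's own allele, and an effect of the allele on them was not tested. *Egfr* and *Erbb2* lie on chromosome 11 with *Wap* and *Tbrg4*, the genes joined by the deletion. *Egfr* starts 10.1 Mb from *Wap* and *Erbb2* 91.8 Mb from it. *Wap* was at 172935 and 234774 exon FPKM, against 4.6 and 6.2 for *Egfr*.

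The genes whose exon and intron values in both mice were nearest to those of the main receptor and the main ligand were found by Euclidean distance over log2(exon FPKM + 1) and log2(intron FPKM + 0.1). For *Erbb3* these were *Snrpb* (0.166), *Echs1* (0.203) and *Hint3* (0.242). For *Egf* they were *Tbc1d20* (0.254), *Hnrnpab* (0.264) and *Tmem176b* (0.267). The distance was taken over 4 values from 2 mice, and no more is read from it than a like level in these libraries.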

How the data were processed

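The authors made stranded total RNA libraries from mammary gland of 2 WT/wTbrg4 mice at L10, mapped reads to mm10 with STAR, counted them with HTSeq over merged exons and over the remaining introns, and deposited exon and intron FPKM made with DESeq2, rounded to 1 decimal. Versions, scaling total and strand setting are not given in the sources used here. The summed exon FPKM was 852961 and 1788120 in the 2 mice.

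Of 20550 rows, 35 without a usable symbol were left out. Members and gene lists were chosen with earlier results of these data known. Named genes were the members, the 2 highest and 2 lowest of each pathway list, and the 3 nearest to the top receptor and ligand; other genes of the lists were named after their values were seen, and some genes of the lists are not reported here. Mice were compared at a pseudocount of 1 (introns 0.1) over genes averaging 1 exon FPKM or more, with a lowess fit over 30% of genes for GC content (statsmodels 0.14.6; intervals from scipy 1.17.1, in Python 3.11.15 with pandas 2.3.3). Lengths (20137 genes), GC content, positions and promoters came from RefSeq on GRCm38.p6. No test was run, since 1 genotype with 2 mice allows none.

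The worth of 1 fragment was estimated from the spacing of FPKM times length in genes of 150 to 1000 bases (317 and 246 genes). It was tested on data simulated with the same RefSeq lengths, which cannot show an error in those lengths. The authors counted over UCSC known genes, whose lengths may differ. Exon length in RefSeq and in all GENCODE M21 transcripts was 1928 and 6075 bases for *Nrg4*, 4788 and 11275 for *Egf*, and 5999 and 6016 for *Erbb3*. Estimated fragments and their intervals would shift with such lengths. The estimate gave about 12070000 and 11390000 exon fragments. Exact Poisson (95%) and Clopper-Pearson fold intervals and the limit of 3 fragments for a listed 0 rest on it and cover counting error only. Alternatives were other scalings, pseudocounts, filters and lengths, a GC correction, introns, and each mouse alone.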

Additional observations from a re-analysis of the deposited data

How the results depend on the processing

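Of 44 alternatives tried for the summary values, 33 stayed within the spread between the mice or within 1.5 times a count, and 11 moved. The 33 include sums and shares of each mouse alone and geometric means. With 2 mice these always fall within that spread, so the tally does not measure stability. The summary values are sums, shares and counts without a direction. Of the single members, *Egfr*, *Erbb4* and *Nrg4* changed direction between the mice with equal sums (log2 ratios -0.54, -0.45 and -0.45). *Erbb4* also did so after the GC correction (-0.03). Rescaling without the 10 highest genes raised the summed exon FPKM of the members from 83.8 to 486.8. Rescaling set their summed intron FPKM, 3.15 as deposited, to 321.8 with a sum of 1000000 and to 408.3 without the 10 highest genes. On introns, the *Erbb3* share was 42.3% (62% on exons) and the *Egf* share 76.7% (96.2% on exons). With equal summed exon FPKM, chosen after seeing the data, 3 members (*Erbb3*, *Egf* and *Erbb2*) and 4498 genes were more than 2-fold apart, compared with 0 and 581. All genes more than 2-fold apart numbered 1092 at a pseudocount of 0.1, 231 at a mean of at least 10 FPKM and 186 after the GC correction. Pathway genes at a mean of at least 10 FPKM numbered 22, against 56 at 1 FPKM, and all genes 3112 against 9845. Apart from the construction of each alternative, the cause of these shifts was not tested.

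With replicate 2 alone and then replicate 1 alone, the members summed to 72.5 and 95.1 exon FPKM and 3.2 and 3.1 intron FPKM, the *Erbb3* share was 54.9% and 69.1%, the *Egf* share 95.5% and 96.8%, members above the median intron to exon ratio numbered 2 and 3 (*Erbb4* was above it in replicate 1 only), and pathway genes 56 in both. With 2 mice these values always lie within 1 SD of the mean and show no stability. Over collapsed GENCODE M21 exons, a length basis added after seeing the data, the *Erbb3* share was 67.7% and the *Egf* share 96.3%. No paired analysis was possible because there is only 1 group of RNA-seq samples. Depth limits *Nrg4*, *Hbegf*, *Tgfa*, *Btc* and *Ereg*, which rest on at most 21 estimated fragments in a mouse.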
